A study of Margaritifera margaritifera with 32 samples.

Results

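The zinc finger protein contigs of the freshwater pearl mussel Margaritifera margaritifera are 84 of the 51392 contigs in the count table. They are the contigs whose name, without its prefix and copy number, is one of the numbered zinc finger symbols (ZNF, ZFP, ZN, ZBT, ZEB and the like followed by a number), and they carry 48 distinct names. The rule reads names alone, although this group of contigs was taken up with earlier results of these data known. A name is a best match that was not tested, so ZEB2 below means the contig that carries that name. Of the 48 names, 32 have 1 contig and 16 have several, which together make up 52 contigs. Spellings were kept apart, so ZN429 and ZNF429 count as separate names. Reads may be shared between contigs of 1 name, which are therefore not independent of each other.

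The animals were wild mussels of the Dronne River in France, taken upstream and downstream of a dump in April 2009 and March 2010, in a study whose title names trace metal contamination. Kidney RNA of 32 animals was sequenced, 1 library for each animal and 8 animals in each of the 4 groups of site and year. The upstream 2009 group held 3 young, 4 middle-aged and 1 old animal, and the upstream 2010 group held 4 young, 3 middle-aged and 1 old animal. The downstream 2009 group held 1 middle-aged and 7 old animals with none young, and the downstream 2010 group held 3 young, 3 middle-aged and 2 old animals. The labels name no treatment beyond site, year and age class. Each group carried its own index sequences, and sampling month and sample number differ between the years, so that these and the site or year of an animal cannot be told apart. The 4 sequencing lanes each held 2 animals of every group.

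Most proteins with such names are built from repeated C2H2 zinc fingers, short folds in which a zinc ion is held by cysteine and histidine residues. Each finger reads a few bases of DNA, and a row of fingers gives the protein its target sequence. In humans most of the numbered ZNF proteins also carry a KRAB domain, which recruits the repressor TRIM28 and chromatin-modifying enzymes, and many of them silence transposable elements. Smaller groups carry a BTB domain, through which the proteins pair, or a homeodomain-like segment, as ZEB2 does. Zinc in these proteins is structural, unlike in metallothioneins, which store and buffer the metal. Whether a mussel contig encodes any of these domains was not tested here, since no contig sequence was used.

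Depth ranged from 55723097 to 190000447 reads per library. All 84 zinc finger contigs passed the filter on low counts, as did 51264 contigs in all. Their totals over the 32 libraries ran from 636 to 112753 reads with a median of 7968, and 1 of the 84 had a library with 0 reads. Levels are in CPM, the read counts of a contig relative to the size of its library after scaling by the TMM factor, which corrects for differences in composition and ranged from 0.503 to 1.47. The factor was under 0.8 in 6 libraries, all of 2009, namely upstream replicates 2, 3, 4 and 7 and downstream replicates 7 and 8. Beside the kidney label, 3 contigs named for proteins of excretory epithelium were looked at, CUBN and LRP2 of reabsorbing cells and nphs1 of the filtration barrier. Without libraries of another tissue, their levels cannot show which tissue was taken or how pure it was. The medians of these 3 contigs per group lay between 1.71 and 9.03 CPM and none was at 0 in any animal, although LRP2 ran from 0.0540 to 57.4 CPM over animals. Differences are on the log2 scale. Each is given with a standard error derived from its test, as the size of the difference over the square root of the F statistic. Calls were made by the edgeR quasi-likelihood test where the p adjusted over all tested contigs (Benjamini-Hochberg) was under 0.05.

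Many of the zinc finger contigs fell between 2009 and 2010, at both sites. Upstream, 36 of the 84 (42.9%) fell and 1 rose, while 3.73% of all tested contigs were called, 2.94% lower and 0.79% higher. Downstream, 58 (69%) fell and 2 rose, against 27.7% of all tested contigs, 13.7% lower and 14.1% higher. The median log2 difference of the 84 was -0.79 upstream and -0.91 downstream, where the median of all tested contigs was -0.02 at each site. The upstream count was 14 lower without upstream 2009 replicate 3 or without replicate 4, 14 in a fit to the 16 upstream libraries alone, 17 with limma-voom and 1 without the 6 libraries of low scaling factor. The downstream count was 57 lower in a fit to its own 16 libraries, 65 with limma-voom and 61 without the 6 libraries. It dropped to 41 with age class as a term in the model, of which 38 were among the 58. The estimate was below 0 in 75 of 84 contigs upstream (89.3%) and in 78 downstream (92.9%). Over all tested contigs it was below 0 in 51.6% and 50.9%. Among the 1327 other tested contigs with a gene or protein name, 6.33% were called lower upstream and 34.4% downstream, with medians of -0.30 and -0.56. Of these other named contigs, 71.3% had an estimate below 0 upstream and 77% downstream. In bulk RNA from a whole organ, fewer cells of a type and less RNA per cell cannot be told apart.

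**Figure D1:**
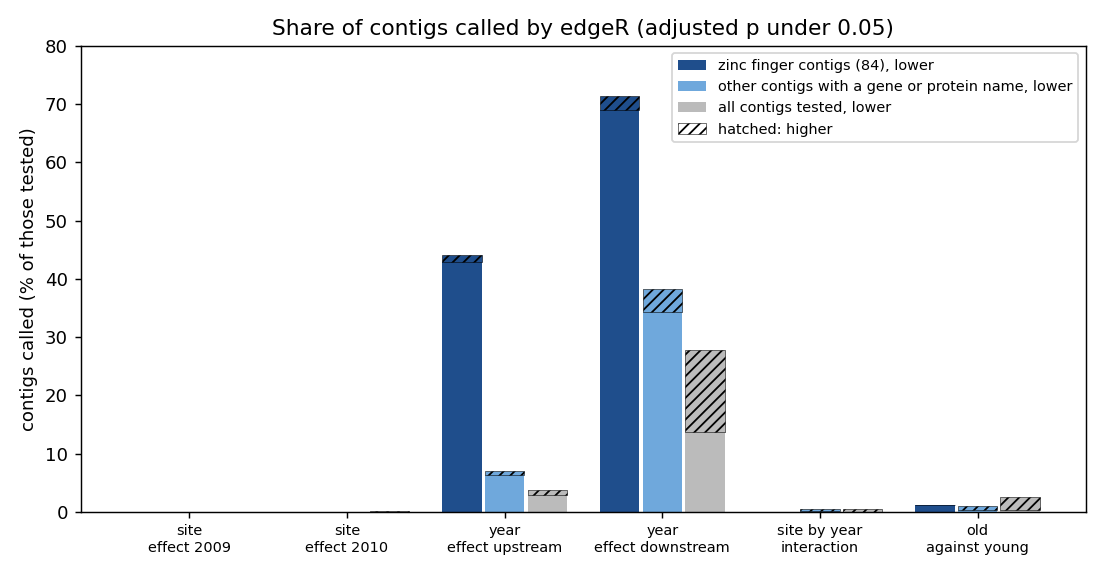
Share of contigs called in each comparison (vertical axis, percent of contigs tested), for the 84 zinc finger contigs, the other contigs with a gene or protein name and all contigs tested; plain bars are contigs called lower, hatched bars those called higher. The zinc finger bars reach 42.9% lower upstream and 69% lower downstream in the 2 year comparisons and are at or near 0 in the site, interaction and age comparisons. The upstream bar stands for 36 contigs, of which 1 was called without the 6 libraries of low scaling factor. The downstream bar stands for 58 contigs, of which 38 were called lower with age class in the model.

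The year differences of the 2 sites compare separate animals, but both come from 1 model of all 32 libraries that shares its estimate of the spread, so the calls at the sites are not independent. Of the 36 contigs that fell upstream, 33 (91.7%) also fell downstream, and these were 56.9% of the 58 that fell downstream. Over all tested contigs, 78.4% of those called lower upstream were also called lower downstream. The 33 were 39.3% of the zinc finger contigs, where 2.31% of all tested contigs were called lower at both sites. A further 3 fell upstream without a call downstream (ZN430, ZN461 and ZNF91.5.5), 25 fell downstream without a call upstream, and 21 were called at neither site. The difference between the 2 year effects was itself tested as an interaction and called no zinc finger contig, against 0.441% of all contigs tested. At an unadjusted p under 0.05 there were 2 of the 84, against 10.8% of all contigs. By edgeR, a call at 1 site alone therefore was not shown to be a difference between the sites. In the same test limma-voom called 2 zinc finger contigs, where it called 4070 contigs in all.

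**Figure D2:**
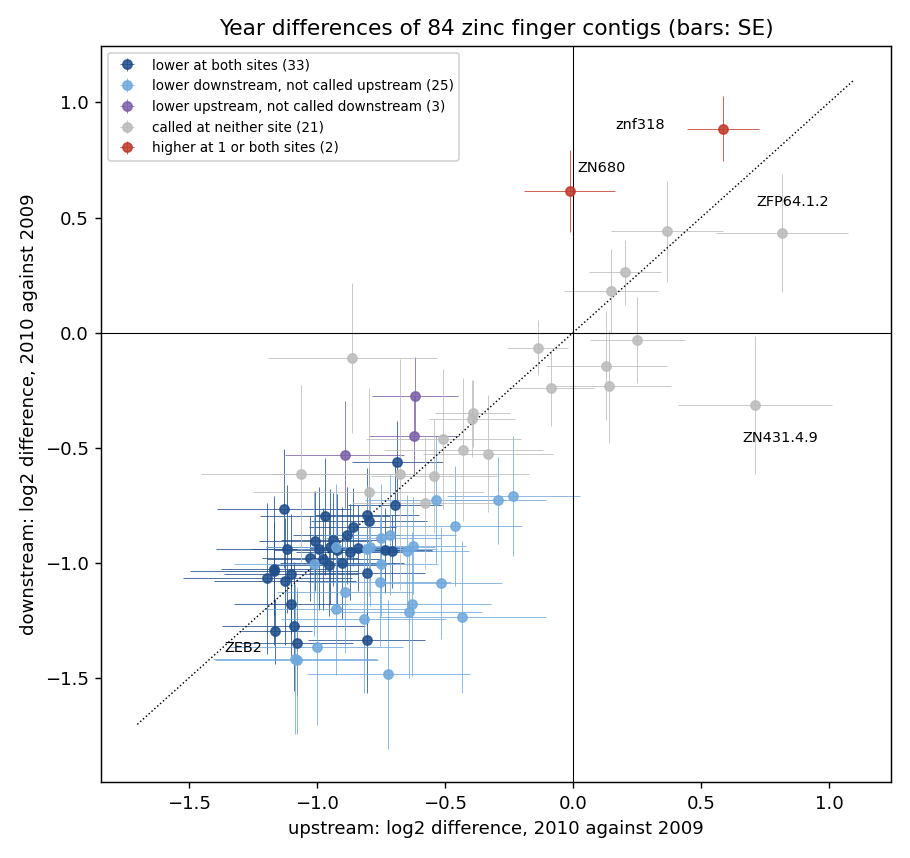
Log2 difference of 2010 against 2009 upstream (horizontal axis) and downstream (vertical axis) for the 84 zinc finger contigs, with the standard error derived from the test as bars and equal differences on the dotted line. Of these, 74 contigs lie below 0 on both axes, and 5 lie above 0 on both, among them znf318.

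ZEB2 had the smallest p of the zinc finger contigs at both sites. In vertebrates it is a repressor with zinc finger clusters at both ends of the protein that binds E-box sequences and lowers cadherin genes during epithelial to mesenchymal transition. Upstream, its level was 4.08 to 8.35 CPM with a median of 6.36 in 2009, and 2.04 to 3.53 CPM with a median of 2.77 in 2010. Downstream, it was 4.99 to 7.39 CPM with a median of 6.91 in 2009, and 1.96 to 3.04 CPM with a median of 2.74 in 2010. Every animal of 2010 was therefore below every animal of 2009 at the same site. Groups apart in this way and lower in 2010 occurred in 0.4% of all tested contigs upstream and 1.7% downstream. The log2 difference of ZEB2 was -1.16 ± 0.143 upstream (2.24-fold lower, adjusted p = 4.33e-05) and -1.30 ± 0.143 downstream (2.46-fold lower, adjusted p = 1.12e-06). Within each of the 4 lanes, with 2 animals against 2, it lay between -1.43 and -0.91 upstream and between -1.71 and -0.89 downstream.

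Of the 84 contigs, 4 had groups that did not overlap between the years upstream, all lower in 2010, and 20 downstream, 19 of them lower. ZEB2, ZN429 and ZNF91.4.5 were in both counts, and ZN626.2.2 was the fourth upstream. ZN626.2.2 was all but tied there, with 1.17167 CPM in the lowest 2009 animal and 1.1716 CPM in the highest 2010 animal. In humans ZNF429 is a KRAB-type protein, and ZNF91 is a KRAB-type protein that represses SVA elements, a family of primate transposons. ZN429 ran from 8.11 to 20.0 CPM upstream in 2009 with a median of 14.0, and from 3.28 to 8.02 CPM in 2010 with a median of 7.05. Downstream it ran from 10.4 to 16.4 CPM in 2009 with a median of 11.7, and from 4.70 to 8.52 CPM in 2010 with a median of 6.08. The upstream years came close, since the lowest 2009 animal had 8.11 and the highest 2010 animal 8.02 CPM. The log2 difference of ZN429 was -1.03 ± 0.186 upstream (adjusted p = 0.00249) and -0.98 ± 0.186 downstream (adjusted p = 0.000321). Without the 6 libraries of low scaling factor the upstream difference was -0.65 and its call was lost (adjusted p = 0.152).

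ZNF91 names 5 contigs, of which ZNF91.4.5 had the most reads. Upstream it fell from a median of 25.3 CPM (17.5 to 36.2) in 2009 to 15.0 CPM (9.56 to 17.5) in 2010. Downstream it fell from 23.0 CPM (20.2 to 36.0) to 12.9 CPM (11.4 to 17.6). The upstream years came close, at a lowest of 17.54 CPM in 2009 and a highest of 17.46 CPM in 2010. The difference was -0.86 ± 0.169 upstream (adjusted p = 0.00475) and -0.84 ± 0.169 downstream (adjusted p = 0.000549). The upstream call was lost without the 6 libraries (-0.57, adjusted p = 0.142). Of the 5 contigs, 4 fell at each site, but not the same 4. ZNF91.2.5 was -0.29 upstream with no call, and ZNF91.5.5 was -0.27 downstream with no call. The widest upstream difference of all 84 was that of ZNF91.3.5, at -1.19.

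**Figure D3:**
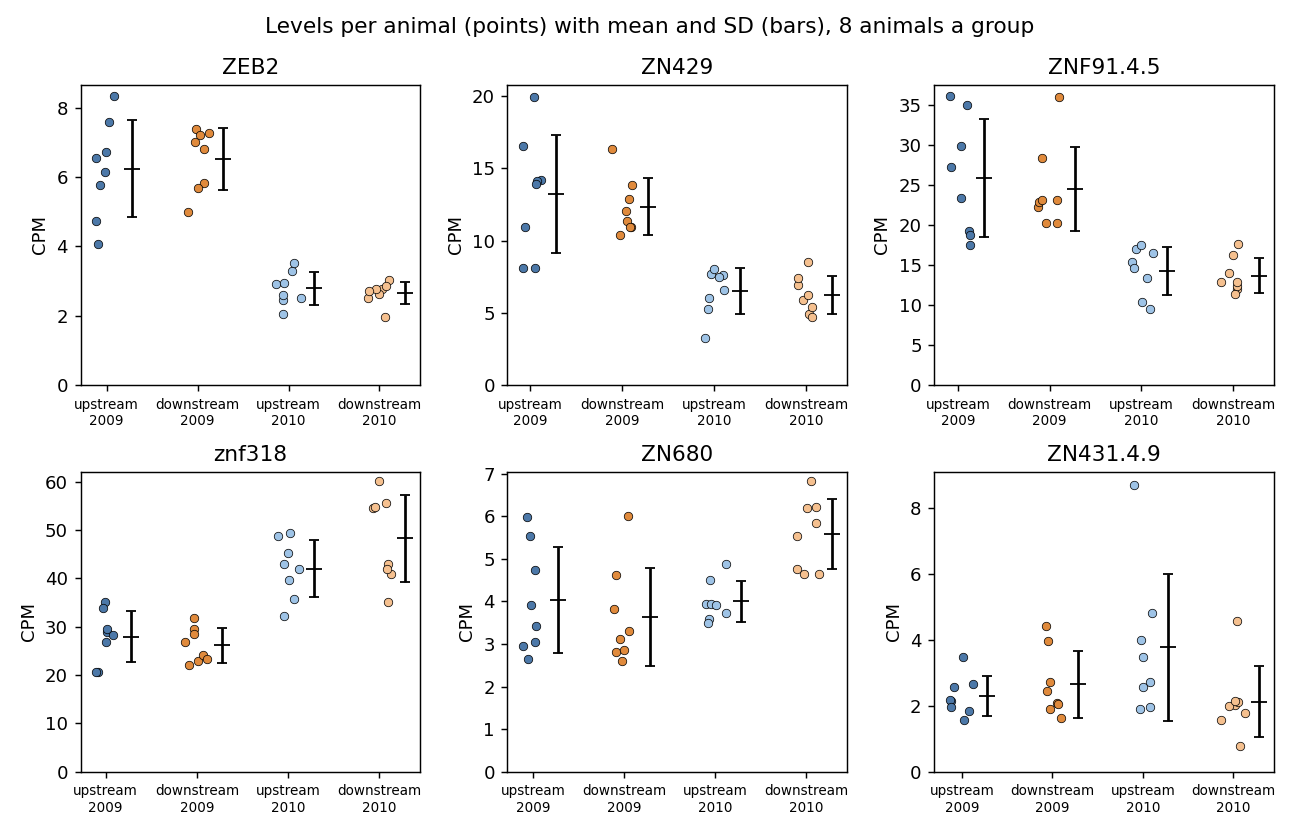
Level in CPM (vertical axes) of 6 zinc finger contigs in each of the 32 animals, by group; points are animals and bars the mean and SD of 8 animals. ZEB2, ZN429 and ZNF91.4.5 are lower in 2010 at both sites with no overlap, although upstream the years of ZN429 and ZNF91.4.5 nearly touch. The contig znf318 is higher in 2010, ZN680 has its highest median in downstream 2010, and ZN431.4.9 has 1 upstream 2010 animal at 8.71 CPM.

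Among the other contigs of small p, ZN234, Znf560, ZN816 and ZN420 were each the only contig of their name. In humans these names denote zinc finger proteins of the same repeated type. Contigs of small p under names with several contigs, such as ZN492.4.4 and ZN431.6.9, are given further below. ZN234 had a median of 4.63 CPM (2.61 to 6.44) upstream in 2009 and 1.98 CPM (1.33 to 2.62) in 2010. Downstream its medians were 4.28 CPM (3.07 to 6.85) and 2.31 CPM (1.27 to 3.08). The years touched at both sites, where the lowest 2009 animal was at 2.61 and 3.07 CPM and the highest 2010 animal at 2.62 and 3.08 CPM, upstream and downstream. It fell by 1.17 ± 0.204 on the log2 scale upstream (adjusted p = 0.00173) and by 1.03 ± 0.203 downstream (adjusted p = 0.000493). Without the 6 libraries the upstream difference was -0.84 and just missed the threshold (adjusted p = 0.0565).

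Znf560 was at a median of 3.09 CPM (2.02 to 5.37) upstream in 2009 and 1.59 CPM (0.868 to 2.11) in 2010, and downstream at 2.80 CPM (2.45 to 5.62) and 1.46 CPM (0.991 to 1.92). Its downstream groups did not overlap, and upstream 1 or more 2009 animals lay within the range of 2010. The difference was -1.10 ± 0.223 upstream (adjusted p = 0.00563) and -1.18 ± 0.223 downstream (adjusted p = 0.000311). ZN816 was at 17.8 CPM (13.7 to 27.3) upstream in 2009 and 10.9 CPM (4.53 to 13.8) in 2010, and downstream at 18.5 CPM (15.0 to 22.5) and 10.4 CPM (6.83 to 14.9). Its downstream groups lay just apart, and its difference was -0.94 ± 0.202 upstream (adjusted p = 0.00867) and -0.90 ± 0.202 downstream (adjusted p = 0.00152). Both contigs lost the upstream call without the 6 libraries, at -0.76 for Znf560 (adjusted p = 0.0978) and -0.71 for ZN816 (adjusted p = 0.228).

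ZNF420, also called Apak, is in human cells a KRAB-type inhibitor of the tumour suppressor p53. The contig ZN420 was at a median of 5.78 CPM (4.49 to 8.39) upstream in 2009 and 3.88 CPM (2.09 to 5.13) in 2010. Downstream it was at 6.05 CPM (5.03 to 7.56) in 2009 and 3.13 CPM (2.71 to 4.35) in 2010. The groups overlapped upstream and not downstream. The difference was -0.70 ± 0.160 upstream (adjusted p = 0.0122) and -0.95 ± 0.160 downstream (adjusted p = 9.3e-05), and the difference between these was not called (adjusted p = 0.844). The upstream call was lost in a fit to only the 16 upstream libraries (-0.70, adjusted p = 0.0547) and without the 6 libraries (-0.62, adjusted p = 0.172).

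Several names with more than 1 contig moved as a group in estimate, with exceptions. ZN492 names 4 contigs, of which 3 fell upstream and all 4 downstream. The one with the smallest p, ZN492.4.4, had a median of 6.99 CPM (3.98 to 11.1) upstream in 2009 and 3.53 CPM (2.44 to 4.19) in 2010, and downstream of 6.71 CPM (4.34 to 11.5) and 2.63 CPM (2.14 to 3.86). Downstream, no 2010 animal reached the lowest 2009 animal. Its difference was -1.08 ± 0.221 upstream (adjusted p = 0.00608) and -1.35 ± 0.222 downstream (adjusted p = 7.21e-05). The upstream call was lost without the 6 libraries (-0.605, adjusted p = 0.193). Downstream calls of ZN492.1.4 (adjusted p = 0.0975) and ZN492.2.4 (0.0637) were lost with age class in the model.

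Of the 5 contigs named ZN726, 3 fell upstream and 5 downstream. ZN726.5.5 lost its downstream call with age class in the model (adjusted p = 0.0521). ZN726.1.5 had a median of 4.75 CPM (3.40 to 9.12) upstream in 2009 and 3.27 CPM (2.03 to 3.85) in 2010, and downstream of 4.81 CPM (4.14 to 5.76) and 2.32 CPM (1.85 to 3.63). Its difference was -0.73 ± 0.183 upstream (adjusted p = 0.0218) and -0.94 ± 0.183 downstream (adjusted p = 0.000399). Its upstream call was made in 29 of 32 fits that left out 1 library and in 7 of the 10 other alternatives. Both ZN714 contigs fell at both sites. ZN714.1.2 went from 8.08 CPM (4.56 to 11.9) to 4.33 CPM (1.79 to 5.45) upstream, a 2.01-fold fall with a standard error of 0.218 on the log2 scale (adjusted p = 0.00917). It went from 6.71 CPM (5.40 to 8.32) to 3.62 CPM (2.48 to 5.24) downstream, a log2 difference of -0.90 ± 0.218 (adjusted p = 0.00269). The upstream ranges overlapped and the downstream ranges did not. Its upstream call was lost with limma-voom (-0.66, adjusted p = 0.0967) and without the 6 libraries (-0.54, adjusted p = 0.429).

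The 3 ZN112 contigs were unlike each other. ZN112.2.3 fell at both sites, from 9.89 CPM (7.12 to 15.7) to 6.14 CPM (3.32 to 8.42) upstream and from 10.3 CPM (8.97 to 14.5) to 4.97 CPM (4.15 to 8.65) downstream. Its difference was -0.84 ± 0.187 (adjusted p = 0.0106) and -0.93 ± 0.187 (adjusted p = 0.000535). The upstream call was lost without the 6 libraries (-0.60, adjusted p = 0.275). ZN112.1.3 fell downstream, at -0.88, and was not called upstream, at -0.72. With age class in the model its downstream call was lost (adjusted p = 0.053). ZN112.3.3 was called in neither comparison, at -0.86 upstream and -0.11 downstream, and its animals spread from 2.87 to 20.5 CPM.

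The 3 ZFP92 contigs fell downstream, by 0.71 to 1.48 on the log2 scale, and none was called upstream, where their estimates were -0.72 to -0.23. With age class in the model the calls of ZFP92.2.3 and ZFP92.3.3 were lost (adjusted p = 0.0858 and 0.192). That of ZFP92.3.3 was made in 23 of 32 fits that left out 1 library and in 4 of the 10 other alternatives. ZFP92.1.3 had the widest downstream difference of the 84 contigs, at -1.48, and its call was made in all of these fits. Its level was 15.4 and 23.9 CPM in downstream 2009 replicates 7 and 8, and 3.18 to 7.91 CPM in the others of that group. Of the 4 ZNF66 contigs, 1 fell upstream and 3 downstream. Both ZN808 and both ZN845 contigs fell downstream and 1 of each upstream. With age class in the model the downstream calls of ZNF66.2.4 (adjusted p = 0.0636), ZN808.1.2 (0.0549) and ZN808.2.2 (0.107) were lost, and those of both ZN845 contigs were kept. Neither ZFP2 contig was called, with estimates between -0.51 and -0.37. Over the 32 names with 1 contig, 12 fell upstream and 17 downstream, so the falls were not limited to names with many contigs.

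In mouse, the protein of the ZNF431 family represses Ptch1, the receptor gene of Hedgehog signalling. ZN431 was the most frequent name, with 9 contigs, of which 5 fell upstream and 8 downstream. Downstream calls were lost with age class in the model for ZN431.1.9 (adjusted p = 0.0767), ZN431.2.9 (0.118), ZN431.3.9 (0.176) and ZN431.9.9 (0.0803). ZN431.6.9 was a contig of low level, at a median of 0.860 CPM (0.542 to 1.25) upstream in 2009 and 0.498 CPM (0.255 to 0.878) in 2010, and at 0.886 CPM (0.710 to 1.03) and 0.355 CPM (0.216 to 0.477) downstream. The downstream years did not overlap. Its difference was -0.80 ± 0.227 upstream (adjusted p = 0.0400) and -1.33 ± 0.230 downstream (adjusted p = 0.000113). The upstream call of ZN431.6.9 was made in 22 of 32 fits that left out 1 library and in 6 of the 9 other alternatives that tested it.

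ZN431.4.9 was the exception of its name in the model without age class. Its median was 2.16 CPM (1.56 to 3.50) upstream in 2009 and 3.10 CPM (1.91 to 8.71) in 2010, and downstream 2.26 CPM (1.63 to 4.42) and 2.01 CPM (0.783 to 4.57). All 4 groups overlapped. The difference was 0.71 ± 0.301 upstream (adjusted p = 0.182) and -0.32 ± 0.300 downstream (adjusted p = 0.463), so neither passed. Once age class was in the model, ZN431.4.9 was called lower downstream (-0.89, adjusted p = 0.0395) and was not called upstream (0.60, adjusted p = 0.213). Without age class, the test of the difference between the 2 sites' year effects gave -1.03 ± 0.425 (adjusted p = 0.323).

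**Figure D4:**
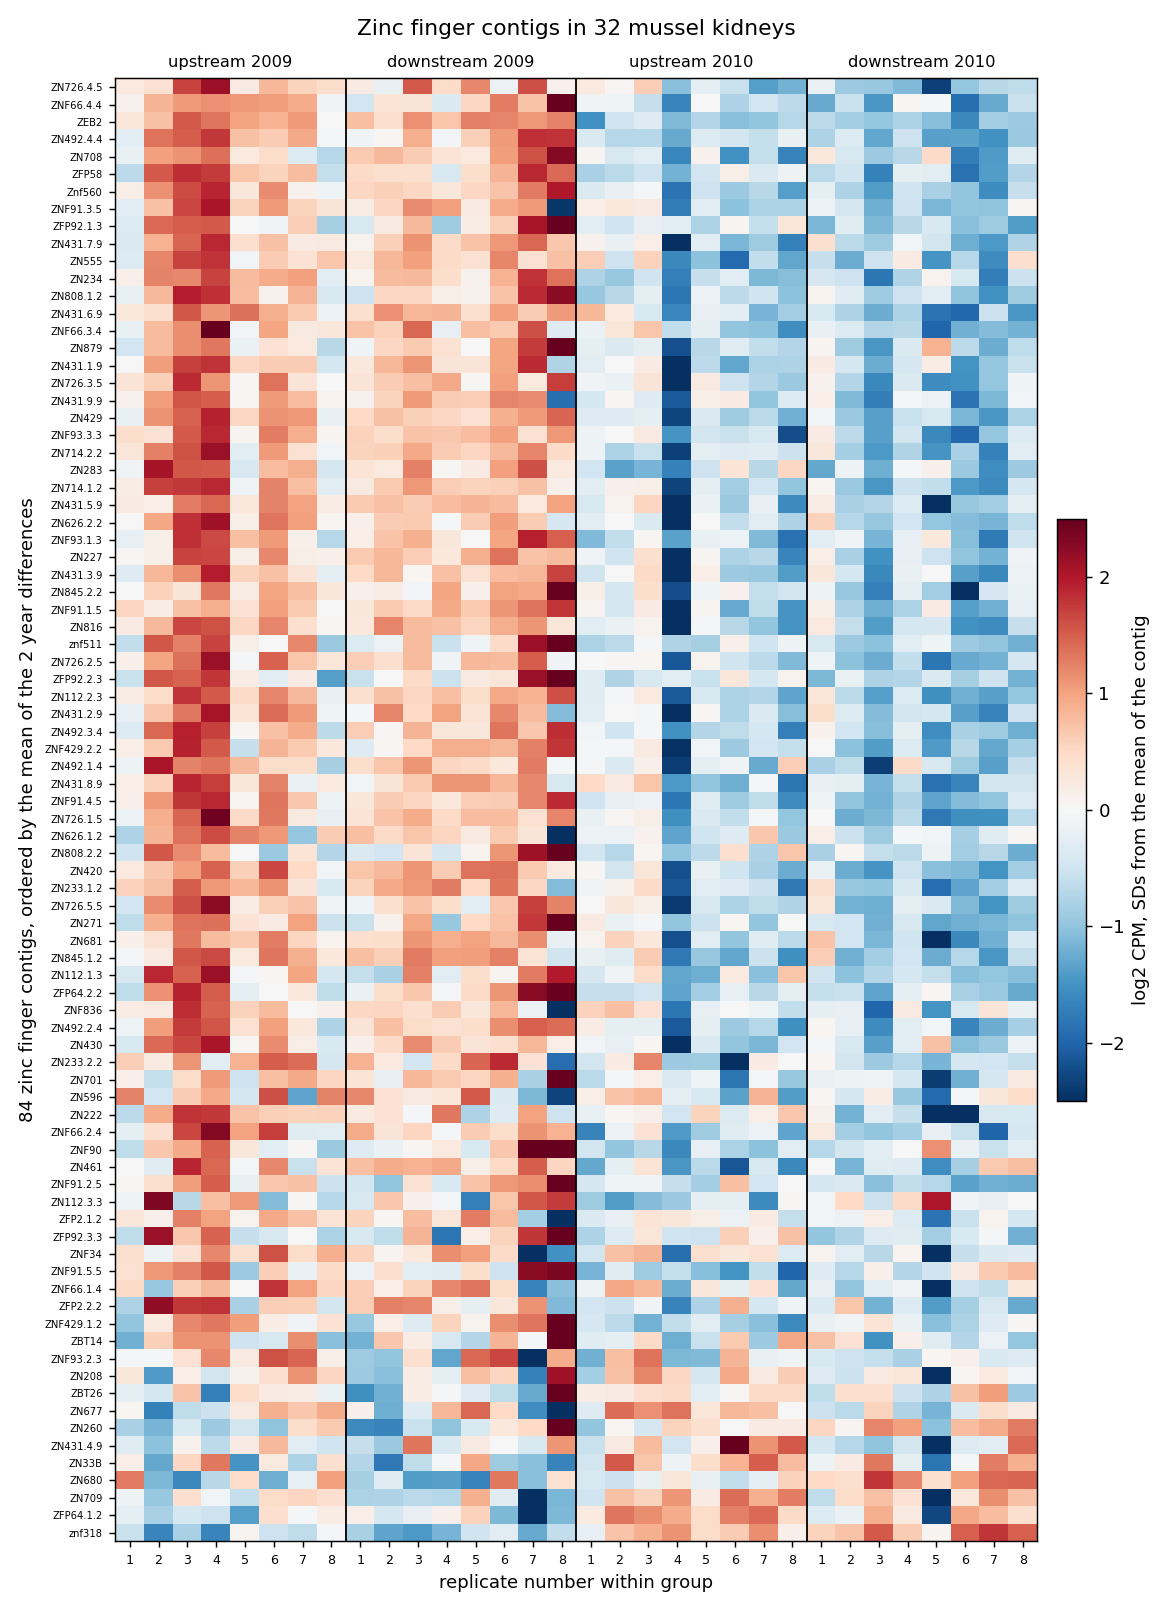
Level of each zinc finger contig (rows, ordered by the mean of the 2 year differences) in each of the 32 animals (columns, by group), as log2 CPM in SDs from the mean of the contig. The 2009 columns are mostly red (above the mean) and the 2010 columns mostly blue (below it); the bottom rows, ending with znf318, run the other way, and upstream 2010 replicate 4 has the deepest blue column.

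The few contigs that rose were znf318 at both sites and ZN680 downstream. ZNF318 is a nuclear protein that in mouse B cells governs the alternative splicing that yields IgD, and it is not of the KRAB type. It had the highest mean level by read count of the 84, at 36.1 CPM over the 32 libraries, although contig lengths were not used and levels of different contigs are not comparable. Upstream, znf318 was at a median of 28.6 CPM (20.6 to 35.2) in 2009 and 42.5 CPM (32.3 to 49.3) in 2010. Downstream, it was at 25.5 CPM (22.1 to 31.7) in 2009 and 48.8 CPM (35.2 to 60.1) in 2010. The upstream years overlapped and the downstream years did not, a separation in the upward direction that 3.34% of all tested contigs showed. It rose by 0.59 ± 0.141 on the log2 scale upstream (1.50-fold, adjusted p = 0.0179) and by 0.89 ± 0.141 downstream (1.85-fold, adjusted p = 5.04e-05), with all 8 animals of 2010 above the 2009 median at each site. In each lane the difference was above 0, between 0.34 and 1.00 upstream and between 0.52 and 1.15 downstream. The upstream call was lost in a fit to only the 16 upstream libraries (0.59, adjusted p = 0.0554) and without the 6 libraries of low scaling factor (0.42, adjusted p = 0.339).

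ZN680 was at a median of 3.68 CPM (2.65 to 5.98) upstream in 2009 and 3.93 CPM (3.50 to 4.88) in 2010. Downstream it was at 3.20 CPM (2.61 to 6.00) in 2009 and 5.69 CPM (4.64 to 6.83) in 2010. The downstream 2010 group had the highest median, and single animals of the other groups lay within its range, namely upstream 2009 replicates 1, 5 and 8 at 5.98, 4.73 and 5.54 CPM, upstream 2010 replicate 8 at 4.88 CPM and downstream 2009 replicate 6 at 6.00 CPM. The difference was -0.01 ± 0.176 upstream (adjusted p = 0.977) and 0.62 ± 0.177 downstream (adjusted p = 0.00968). With age class in the model the downstream difference was 0.50 (adjusted p = 0.107) and no longer passed. The difference between the 2 year effects was 0.63 ± 0.249 and was not called (adjusted p = 0.289), while limma-voom called it (0.88, adjusted p = 0.00623).

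A further 4 contigs had estimates above 0 at both sites without a call at either. They were ZFP64.1.2, ZN709, ZN33B and ZN260. In human leukaemia cells ZFP64 binds and drives the MLL promoter, and rat Zfp260 is a cardiac activator. ZFP64.1.2 was at a median of 5.85 CPM (3.64 to 8.26) upstream in 2009 and 11.0 CPM (7.60 to 13.1) in 2010, and at 5.88 CPM (1.79 to 8.85) and 7.86 CPM (2.42 to 10.6) downstream. Its difference was 0.82 ± 0.257 upstream (adjusted p = 0.0674) and 0.43 ± 0.256 downstream (adjusted p = 0.215). The other contig of that name, ZFP64.2.2, was at -0.62 upstream with no call and fell by 0.92 downstream.

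Some contigs with deep counts differed little between the years. ZNF93.2.3 lay between 12.1 and 22.0 CPM over all animals, with differences of -0.14 ± 0.119 upstream (adjusted p = 0.546) and -0.06 ± 0.119 downstream (adjusted p = 0.728), while both other ZNF93 contigs fell at both sites. ZNF93.1.3 lost its downstream call with age class in the model (adjusted p = 0.0674). In humans ZNF93 is a KRAB-type repressor of LINE-1 transposons. The contigs named for BTB-type proteins, ZBT14 and ZBT26, were not called either, at -0.08 and 0.13 upstream and -0.24 and -0.14 downstream. ZBTB14 was first described as a repressor of the MYC promoter. The 3 contigs of lowest mean level were ZNF836 at 0.223, ZN726.4.5 at 0.350 and ZN555 at 0.356 CPM, of which ZN555 fell at both sites (-1.17 and -1.03), ZN726.4.5 downstream (-1.42) and ZNF836 at neither. The upstream call of ZN555 was made in 23 of 32 fits that left out 1 library.

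The year differences were also taken within lanes and age classes. Of all 84 contigs, 62 upstream and 58 downstream were below 0 in each of the 4 lanes. Counts within lanes or age classes were not made over all tested contigs, so no share stands beside them. The median over the 84 contigs ranged from -1.42 to -0.32 between lanes upstream and from -1.04 to -0.42 downstream. Within the age classes, the upstream median was -0.85 among young animals (4 against 3), -0.55 among middle-aged animals (3 against 4) and -0.62 for the single old animal of each year. Downstream it was -0.80 among old animals (2 against 7), with 80 of 84 contigs below 0, and -0.89 among middle-aged animals (3 against 1). With age class as a term in the model, 36 contigs were called lower upstream, 34 of them the same, and 41 downstream, 38 of them the same.

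The size of the upstream count rested on a few animals. The summed level of the 84 contigs was 344.5 to 587.9 CPM upstream in 2009, 261.8 to 385 CPM upstream in 2010, 358.4 to 653.4 CPM downstream in 2009 and 289.4 to 339.9 CPM downstream in 2010. The 6 libraries with a scaling factor under 0.8 had sums of 426.6 to 653.4 CPM, the other 10 libraries of 2009 had 344.5 to 461.5 CPM and the 16 of 2010 had 261.8 to 385 CPM. The downstream years stayed apart without those libraries, at a lowest of 358.4 CPM in 2009 and a highest of 339.9 CPM in 2010, and the upstream years overlapped with and without them. Without the 6 libraries, which left 4 upstream animals in 2009, 1 zinc finger contig (ZEB2) was called upstream in place of 37, with a median of -0.48 and 69 of 84 estimates below 0. Downstream, 61 contigs were then called lower and 3 higher. Leaving out single libraries gave 15 calls upstream without upstream 2009 replicate 3, 15 without replicate 4, 18 without upstream 2010 replicate 4 and 24 without upstream 2010 replicate 8. Of the 37 upstream calls, 14 were made whichever of the 32 libraries was left out, and of the 60 downstream calls 56 were.

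**Figure D5:**
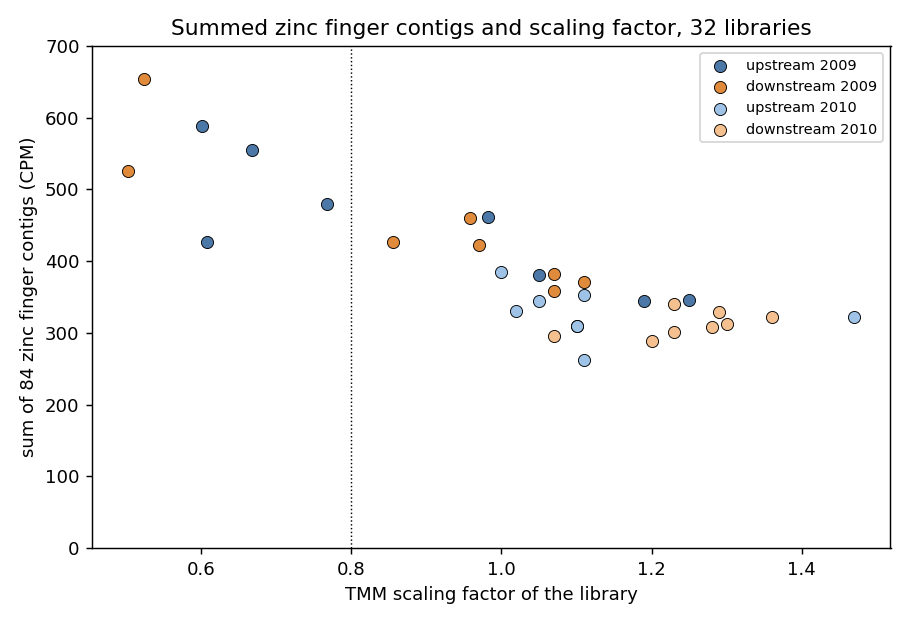
Sum of the 84 zinc finger contigs in CPM (vertical axis) against the TMM scaling factor (horizontal axis, no unit) of each of the 32 libraries, coloured by group; the dotted line marks 0.8. The 6 libraries left of the line are all of 2009 and have sums of 426.6 to 653.4 CPM, and the 16 libraries of 2010 lie between 261.8 and 385 CPM.

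The 6 libraries also differed in other transcripts. The summed level of contigs named for ribosomal proteins was 25500 to 110000 CPM in them, 8210 to 31900 CPM in the other 2009 libraries and 7270 to 18400 CPM in 2010. Of 39 tested ribosomal contigs, 31 fell downstream (79.5%, against 13.7% of all tested contigs). None was called upstream, where 28 had an unadjusted p under 0.05 (19.4% of all tested contigs). Markers of other tissues also had lower estimates in 2010, in part. All 6 haemocyte contigs were below 0 at both sites, with medians of -0.66 upstream and -1.83 downstream. All 11 muscle contigs were below 0 downstream (median -1.23), 7 of them at an unadjusted p under 0.05 (38.9% of all tested contigs). Upstream, 9 of the muscle contigs were above 0 (median 0.32). The gonad contig was at -0.79 upstream and -0.74 downstream, with no call at either site. These marker levels also varied widely between animals. The 11 tropomyosin contigs of the muscle list summed to 265 to 3720 CPM downstream in 2009 and 219 to 966 CPM in 2010, and 340 to 2030 and 333 to 3640 CPM upstream. The 6 lysozyme contigs of the haemocyte list summed to 39.8 to 785 CPM downstream in 2009 and 18.1 to 151 CPM in 2010, and 16.6 to 193 and 17.8 to 97.1 CPM upstream. The 3 contigs of the cilia list summed to 11.1 to 90.2 CPM over all groups, and the single gonad contig, ODF3A, ran from 4.55 to 27.9 CPM. Called lower downstream were 2 of 11 in the muscle list (18.2%), 2 of 6 in the haemocyte list (33.3%) and 1 of 3 in the cilia list (33.3%), against 13.7% of all tested contigs. None of these lists had a call upstream, where 3.73% of all tested contigs were called. The part of these tissues and of the 6 libraries in the zinc finger differences was not tested.

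Single animals also held many of the extremes. Upstream 2010 replicate 4 was the lowest of its group in 48 of the 84 contigs (57.1%), and in 16.8% of all tested contigs. Upstream 2009 replicate 4 was the highest of its group in 40 (47.6%, against 15.9% of all contigs), and replicate 8 the lowest in 34 (40.5%, against 13.3%). Downstream 2009 replicate 8 was the highest of its group in 35 (41.7%) and also the lowest in 22 (26.2%), against 23.2% and 32% of all contigs. Downstream 2010 replicate 1 was the highest of its group in 39 (46.4%, against 8.39% of all contigs). In these animals the high or low values of many zinc finger contigs coincided.

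Between the sites, no zinc finger contig was called in 2009, in 2010 or over both years, where 0%, 0.164% and 0% of all tested contigs were called by edgeR. At an unadjusted p under 0.05 there were 0, 6 and 2 of the 84, against 8.34%, 14.2% and 12.5% of all contigs. DESeq2 called none of the 84 in any of these, and limma-voom called none in 2009 and over both years but 24 in 2010 (6 higher and 18 lower), when it called 14879 contigs in all. The medians of the 84 were -0.04 in 2009, -0.14 in 2010 and -0.09 over both years.

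The contigs of smallest p in 2009 were ZN879 and ZN808.2.2. ZN879 was at a median of 2.25 CPM (1.30 to 3.94) upstream and 2.63 CPM (1.80 to 9.56) downstream, a difference of 0.58 ± 0.321 (adjusted p = 0.641) that was 0.21 without downstream 2009 replicate 8. ZN808.2.2 was at 14.5 CPM (8.46 to 28.3) and 14.7 CPM (10.5 to 66.3), a difference of 0.55 ± 0.325 (adjusted p = 0.662), which was 0.13 without downstream 2009 replicate 8 and -0.18 without replicates 7 and 8. In 2010 they were ZN431.4.9, at -0.83 ± 0.301 (adjusted p = 0.215) and -0.53 without upstream 2010 replicate 6, and ZN680, at 0.48 ± 0.176 (adjusted p = 0.217), with all 8 downstream animals above the upstream median. This ZN680 difference was called by limma-voom (0.615, adjusted p = 4.19e-05) and in a fit to only the 2 groups (0.444, adjusted p = 0.0373). Over both years, ZN222 was at -0.53 ± 0.194 (adjusted p = 0.325) and ZNF90 at 0.37 ± 0.174 (adjusted p = 0.382), which was 0.24 without downstream 2009 replicate 8. ZN222 ran from 0.352 to 1.12 CPM upstream and 0.330 to 0.892 CPM downstream in 2009, and from 0.383 to 0.661 and 0.115 to 0.506 CPM in 2010. ZNF90 ran from 1.65 to 3.99 and 2.02 to 7.53 CPM in 2009, and from 1.28 to 2.16 and 1.78 to 3.54 CPM in 2010.

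Age class was compared in a model that also holds the group, with 10 young, 11 middle-aged and 11 old animals. Between old and young animals 1 of the 84 contigs was called, lower in the old, against 2.45% of all tested contigs (2.07% higher and 0.382% lower), and the median of the 84 was 0.11. That contig was ZN431.4.9, at a median of 2.84 CPM (1.96 to 8.71) in young, 2.14 CPM (1.57 to 4.42) in middle-aged and 2.06 CPM (0.783 to 3.98) in old animals, and the classes overlapped. Its difference was -1.06 ± 0.284 (adjusted p = 0.0437), and the call was lost with a lane term (adjusted p = 0.0616) and in 16 of the 32 fits that left out 1 library. The highest adjusted p among these was 0.296, without downstream 2010 replicate 5. ZN708 was next, at 0.420 CPM (0.225 to 0.878) in young and 0.982 CPM (0.511 to 2.70) in old animals, a difference of 1.03 ± 0.319 that did not pass (adjusted p = 0.0693).

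Middle-aged against young animals and old against middle-aged animals gave no called zinc finger contig, where 0.0039% and 0% of all tested contigs were called. At an unadjusted p under 0.05 there were 10 and 5 of the 84, against 11.3% and 13.3% of all tested contigs. Neither DESeq2 nor limma-voom called any of the 84. ZN431.7.9 and ZNF66.3.4 had the smallest p between middle-aged and young animals, at 0.65 ± 0.219 (adjusted p = 0.314) and 0.60 ± 0.230 (adjusted p = 0.358). Their medians were 1.24 CPM (0.459 to 2.89) and 0.557 CPM (0.380 to 1.44) in young animals, and 2.13 CPM (0.986 to 5.44) and 0.833 CPM (0.459 to 3.24) in middle-aged animals. Between old and middle-aged animals they were ZN112.3.3, at 0.89 ± 0.277 (adjusted p = 0.265), and ZN726.4.5, at -0.74 ± 0.298 (adjusted p = 0.307).

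The name patterns used for other zinc-binding and regulatory proteins found few contigs, and zinc-binding families outside these patterns were not searched. The only other C2H2 factor found was klf11, named for a TGF-beta-inducible repressor. It fell downstream by 2.26 ± 0.529 (adjusted p = 0.00211), with 1 downstream 2009 animal at 101.0 CPM and a median there of 9.39 CPM. Of 16 RING and TRIM contigs, which name ubiquitin ligases with a different zinc fold, none was called upstream, and downstream 2 rose (RNF213 and mycbp2) and 3 fell. Called downstream were thus 31.2% of them, close to the 27.7% of all tested contigs (13.7% lower and 14.1% higher). Upstream, 3.73% of all tested contigs were called. The RING and TRIM contigs that fell were rnf113a, at -0.66 ± 0.149 (adjusted p = 0.00165), TRIM59.1.2, at -0.96 ± 0.305 (adjusted p = 0.0182), and RBX1, at -1.27 ± 0.414 (adjusted p = 0.0218). Of 3 contigs with other zinc folds, ZMIZ1 fell upstream (-0.77 ± 0.224, adjusted p = 0.0477) and ZC3H11A, named for an mRNA export factor, rose downstream (0.64 ± 0.216, adjusted p = 0.0269). None of 3 contigs found by the name pattern for chromatin proteins (NSD2, SIR5 and kdm6a) was called in a year comparison. The same held for 4 other transcription factor contigs (CREBL2, ELF3, HES4 and hoxd4). Whether the 3 act on chromatin was not checked beyond the name. Of 6 zinc transporter contigs, none was called upstream, and 2 named for the vesicle transporter slc30a8 fell downstream, at -0.77 ± 0.273 (adjusted p = 0.0335) and -0.74 ± 0.267 (adjusted p = 0.0387). The kidney marker nphs1 fell upstream (-0.76 ± 0.184, adjusted p = 0.0191), while CUBN and LRP2 were called at neither site.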

How the data were processed

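Kidney RNA of 32 mussels was measured with TruSeq RNA v2 libraries. The authors deposited 1 table of raw read counts per contig, as whole numbers that are not normalized. BWA 0.7.12 and SAMtools 1.1 are named in the submitters' processing notes. How contigs were assembled and named, and how reads that match several contigs were counted, is not given in the sources used here. Depth was 55723097 to 190000447 counts per library, and no library repeated another.

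The test was that of edgeR 4.0.16, run in R 4.3.3: filterByExpr (minimum count 10, minimum total 15), TMM factors, 1 quasi-likelihood model with 4 group means (glmQLFit, robust, and glmQLFTest), and Benjamini-Hochberg adjustment over 51264 contigs, two-sided. Age comparisons had group and age class as terms. Zinc finger contigs were found by name, and lists of other proteins by patterns on the name. Names that match a pattern by spelling alone (spr, MYCB2, mycbp2 among transcription factors, nfkbia, tbxas1, tpmt, CCD58 and TTC37) were left out. The members and lists were chosen with earlier results of these data known. Full values are given for up to 10 called members of smallest p in each direction and comparison, the 2 of smallest p where none was called, and the 3 of highest and of lowest mean CPM. ZNF91.3.5, ZFP92.1.3, ZBT14, ZBT26, ZFP64.1.2 and the other contigs named outside that rule were chosen after their values were seen. Lane differences are differences of mean log2 CPM (prior count 2).

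Alternatives were RLE factors, no filter, at least 1 CPM in 8 libraries, DESeq2 1.42.0, limma-voom with sample weights (limma 3.58.1), lane or age terms, only the groups compared, no group term for age, libraries left out singly, and downstream 2009 replicates 7 and 8 left out together. A fit without the 6 libraries of scaling factor under 0.8 was added after the data were seen. The scripts were tested on simulated data.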

Additional observations from a re-analysis of the deposited data

Results flagged for a closer look

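Among 23 named zinc finger contigs, the 4 groups of 8 animals each were searched for an animal far from the others on the log2 CPM scale, by the gap to its nearest neighbour over the range of the group, set against Dixon's 95% critical value for 8 values. Of 92 groups tested, 8 had one. Chance alone gives about 1 in 20 groups. Levels are printed in CPM, and the search was not run on that scale.

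Upstream 2010 replicate 4 was the lowest animal in 3 contigs. It had 3.28 CPM of ZN429, where the other 7 animals had 5.26 to 8.02 CPM, 1.79 CPM of ZN714.1.2 (others 3.28 to 5.45 CPM) and 0.562 CPM of ZN879 (others 1.28 to 1.70 CPM). Downstream 2010 replicate 5 stood apart in 3 contigs, in both directions. It had 17.6 CPM of ZN112.3.3 (others 5.09 to 8.40 CPM) and 3.54 CPM of ZNF90 (others 1.78 to 2.31 CPM), both the highest, and 0.0626 CPM of ZN726.4.5 (others 0.147 to 0.267 CPM), the lowest. Downstream 2010 replicate 6 had the lowest ZEB2 of its group, at 1.96 CPM (others 2.52 to 3.04 CPM), and the year difference downstream was -1.24 without it. Downstream 2009 replicate 8 had the highest ZN112.2.3, at 14.5 CPM (others 8.97 to 11.1 CPM), and the year difference downstream was -0.87 without it.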

How the results depend on the processing

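The downstream year effect kept its count within 1.5 times of 60 under every alternative, from 42 (age term) to 72 (limma-voom). The upstream count of 37 was 19 with limma-voom, 15 with only the 2 groups and 1 without the 6 libraries of lowest scaling factor, and it ranged from 15 to 50 with 1 library left out. Without those 6 libraries all tested contigs called upstream numbered 348 in place of 1914. DESeq2 called 50 upstream. The site effect in 2010, with 0 calls, gave 24 with limma-voom and 1 with only the 2 groups, and the interaction gave 2 with limma-voom. The comparison of old with young animals, with 1 call, gave 3 with DESeq2, 5 with limma-voom, 4 with a lane term (all higher in old animals), 17 without the group term, 3 without downstream 2009 replicates 7 and 8, and 0 to 3 with 1 library left out. The difference of ZN808.2.2 between the sites in 2009, 0.55, was -0.18 without downstream 2009 replicates 7 and 8. The causes were not tested. Of 36 results for named contigs, 1136 fits with 1 library left out kept the call or its absence and 16 lost it, all of ZN431.4.9 between old and young animals, and of the other alternatives 320 kept it, 15 lost it and 3 gained it. No paired analysis was possible because replicate numbers follow accession order and pair no animals. Without contig lengths and sequences, levels of different contigs cannot be ranked and the names cannot be checked. Low counts limit the rarest contigs, and the p-values cover animals within 1 sampling per site and year.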
